A study of Mus musculus with 24 samples.

Results

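The growth hormone and IGF1 axis of the mouse liver was described here through 10 genes chosen by symbol for their role in that axis: the receptor gene Ghr, the transcription factor gene Stat5b, the feedback and repressor genes Socs2, Cish and Bcl6, the growth factor gene Igf1, and the genes of its carrier proteins, Igfals, Igfbp2, Igfbp3 and Igfbp4. All 10 were found among the 78298 genes of the count table, and all 10 passed the filter on low counts that left 17456 genes for testing. RNA was sequenced from the livers of 18 steatohepatitis model mice, whose livers hold fat and are inflamed, and of 6 normal control mice, with 1 library per mouse. The labels give no strain, sex, age, diet, agent or duration for either group, and treat the 18 model mice as a single group. How the disease was induced is likewise not stated there.

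Growth hormone from the pituitary binds its receptor on hepatocytes and activates the kinase JAK2, which phosphorylates the transcription factor STAT5, in liver mainly STAT5B. STAT5 then drives genes of 2 kinds: secreted products such as IGF1 and the acid-labile subunit, which carry the hormone's effect to other tissues, and feedback inhibitors such as SOCS2 and CISH, which dampen the receptor. In the blood IGF1 is held in a complex with an IGF-binding protein and the acid-labile subunit, so the proportions of these products matter as well as their levels. In rodents the liver also reads the timing of the hormone, which is pulsatile in males, and keeps male-biased and female-biased sets of genes accordingly.

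The letters that STAT5 binds, TTCNNNGAA, which read the same on both strands, were searched in windows from 250 bases before to 50 bases after the annotated starts (RefSeq, GRCm38.p6, promoter table of 32851 windows of 300 bases). Of these windows 8.30% held at least 1 match. Windows were listed for 9 of the 10 genes, 15 windows in all, and 5 windows of 3 genes held a match: Igfals, Cish and Bcl6. The stretches around those matches are shown because these are the members whose own windows hold the letters. A match is a description of the sequence and not evidence of binding. In the lines below the capitals mark the motif, and the Cish stretch is cut to the bases on either side of its pair of matches.

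Igfals, first start, chr17:24877594-24877655, plus strand: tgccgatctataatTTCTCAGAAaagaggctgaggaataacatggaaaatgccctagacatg
Igfals, second start, chr17:24878131-24878214, plus strand: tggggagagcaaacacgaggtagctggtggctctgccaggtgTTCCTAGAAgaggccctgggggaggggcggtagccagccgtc
Cish, chr9:107296654-107296683, plus strand: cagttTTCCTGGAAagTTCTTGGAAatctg
Bcl6, second start, chr16:23981354-23981463, minus strand: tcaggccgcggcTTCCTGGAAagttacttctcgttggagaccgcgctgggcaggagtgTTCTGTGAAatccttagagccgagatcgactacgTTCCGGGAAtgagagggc

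The Bcl6 stretch holds 3 matches, and the first Bcl6 start holds 1 more, TTCTCAGAA, at position -118 from that start. The windows of Ghr, Stat5b, Igf1, Igfbp2, Igfbp3 and Igfbp4 held none, which says only that these letters are not in these 300 bases. Of all windows 0.457% held 2 or more matches, as the Cish window and the second Bcl6 window did. Of the 3 genes with matches, Igfals fell in model livers, and Cish and Bcl6 were not called, with the values given below. Whether their directions differ was not tested.

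Library totals lay between 31.6 M and 58.4 M counts, 40.7 ± 7.17 M in model mice (SD, n = 18) and 38.7 ± 6.02 M in control mice (SD, n = 6). Every member was well covered, the lowest count of any member in any library being 138, for Bcl6. Levels are given as CPM, the usual count scaled to library size, here with TMM-scaled library sizes, and comparisons between genes as RPKM, which also divides by the summed exon length. Control 6 stood apart from the other controls in its clock genes. A clock index, the mean log2 CPM of Arntl, Npas2, Clock and Cry1 minus that of Nr1d1, Nr1d2, Dbp, Tef, Ciart, Per2 and Per3, was -3.79 to -2.70 in the 18 model mice, -1.20 to 1.04 in controls 1 to 5 and -3.91 in control 6. Control 6 was not matched in every clock gene: its Cry1, at 16.1 CPM, lay above the 3.79 to 5.96 CPM of the model mice, and its Nr1d1, at 25.1 CPM, below their 70.0 to 112 CPM. Apart from it, clock state and group cannot be told apart, so results whose call changed are given also for model mice against control 6 alone. That comparison holds 1 control and assumes that it varies like the model mice. In all 24 libraries Xist had 1 to 9 counts and Ddx3y, Kdm5d, Eif2s3y and Uty were expressed, at 3.93 CPM or more. This is the pattern of male mice, in both groups, though the labels do not give the sex.

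A gene was called when its adjusted p (edgeR's quasi-likelihood test with Benjamini-Hochberg adjustment over all genes tested) was below 0.05. Of the 10 members, 6 fell in model livers (Igf1, Igfals, Igfbp2, Socs2, Igfbp4 and Stat5b), 1 rose (Igfbp3) and 3 were not called (Ghr, Cish and Bcl6). Over all genes tested, 60.0% were called, 28.8% lower and 31.2% higher, so the share of members called in either direction is near the background, while 6 of 10 lower stands beside the 28.8% of all genes. Against control 6 alone 3 members fell (Igf1, Igfals and Igfbp4) and Igfbp3 rose, where 9.75% of all genes tested were lower and 13.3% higher. With library totals 4 members fell (Igf1, Igfals, Igfbp2 and Socs2) and 2 rose (Ghr and Igfbp3), where 8.95% of all genes tested were lower and 53.9% higher. The median log2 fold change of the 10 members was -0.22, beside 0.01 for all genes tested.

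**Figure D1:**
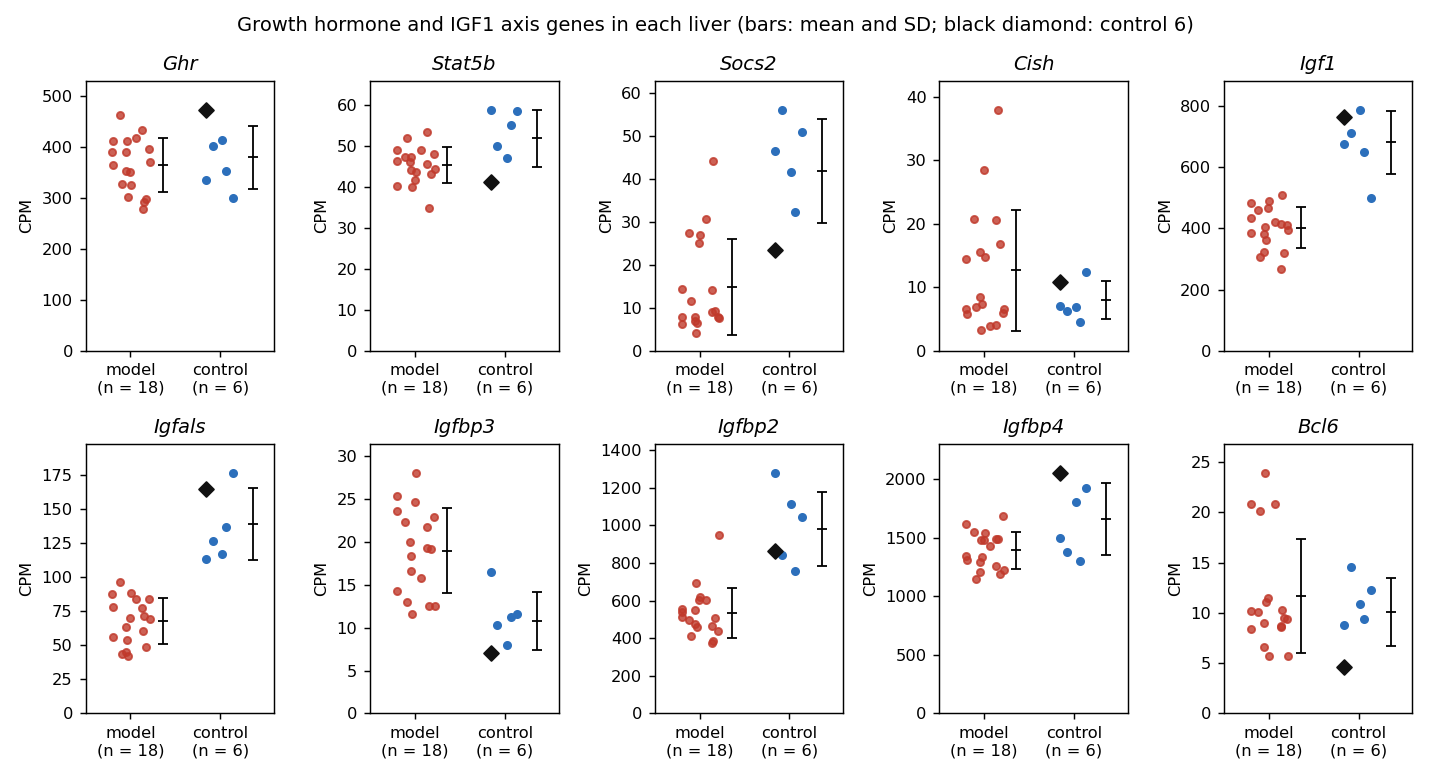
CPM of the 10 axis genes in each liver, with model mice (red, n = 18) left of control mice (blue, n = 6) in each panel, a black diamond for control 6, and bars for the mean and SD. Igfals does not overlap between the groups, while the Socs2 and Cish points of the model mice spread over a wide range.

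At the receptor, Ghr (chr15:3347242-3612974, minus strand, in the GRCm39 build of the deposited table) encodes the growth hormone receptor. It ranged from 279 to 463 CPM with a median of 368 CPM in model livers, and from 301 to 473 CPM with a median of 378 CPM in control livers. The groups overlapped almost entirely, with 3 of 18 model mice below every control and none above. Its log2 fold change was -0.06 (SE 0.10, edgeR adjusted p = 0.648), and it was 0.26 (adjusted p = 0.012) with library totals in place of TMM factors, where the median of all genes shifted by 0.33. The missed threshold does not show equal levels. The 3 non-member genes whose rank order over the 18 model mice was most like that of Ghr, among 9515 candidates averaging 5 CPM or more, were Amy1 (Spearman rho 0.93), Prr16 (0.91) and Asic5 (0.91).

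Downstream of the receptor, Stat5b (chr11:100671557-100741550, minus strand) encodes the STAT5 protein that carries most of the hormone's signal in liver. It ranged from 34.9 to 53.4 CPM with a median of 45.7 CPM in model livers, and from 41.2 to 58.8 CPM with a median of 52.6 CPM in control livers, and the groups overlapped, the lowest control being control 6. Its log2 fold change was -0.19 (SE 0.07, edgeR adjusted p = 0.0272). The call was not kept in many settings: the value was 0.14 with library totals, 0.05 with the clock index as a covariate (adjusted p = 0.768) and 0.15 against control 6 alone (adjusted p = 0.527), and the adjusted p was 0.0645 without control 1, 0.0984 without control 2 and 0.0813 without control 5.

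Stat5a, its close paralog on the same chromosome, behaved differently. It averaged 17.0 ± 2.31 CPM in model livers (SD, n = 18) and 10.7 ± 1.91 CPM in control livers (SD, n = 6), with a log2 fold change of 0.67 (SE 0.10, edgeR adjusted p = 2.62e-06), and all 18 model mice lay above all 6 controls. Within each liver, which removes the choice of scaling, the Stat5a to Stat5b RPKM ratio had a median of 0.293 in model mice (range 0.250 to 0.348) and 0.168 in control mice (range 0.127 to 0.189). Across the 134596 ways to divide the mice, the exact permutation test (two-sided) gave an unadjusted p = 7.43e-06, the smallest it can give. Reads shared by these near-identical genes may have been split between them, so both levels are uncertain to that extent. Jak2, the kinase bound to the receptor, averaged 15.9 ± 1.82 CPM in model livers and 13.9 ± 2.31 CPM in control livers (log2 fold change 0.19, SE 0.09, edgeR adjusted p = 0.0566). It passed with library totals (0.52, adjusted p = 8.8e-05), upper-quartile factors (0.28, adjusted p = 0.0091), the clock index as a covariate (0.38, adjusted p = 0.0335) and a filter of 1 CPM in 6 libraries (0.22, adjusted p = 0.0313), and without control 1, 2 or 4 or model mouse 3 or 11 (adjusted p 0.0276 to 0.0475). Prlr, the related prolactin receptor, averaged 69.3 ± 28.1 CPM in model livers and 83.8 ± 25.6 CPM in control livers (log2 fold change -0.27, edgeR adjusted p = 0.371). It passed with a block on the replicate number (-0.52, edgeR adjusted p = 0.0177) and with model mice 1 to 6 against the controls (-0.54, edgeR adjusted p = 0.0466). With library totals it was 0.03.

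Among the model mice, Socs2 and Cish were the members with the widest spread of log2 CPM. Socs2 (chr10:95221224-95253042, minus strand) encodes a suppressor of cytokine signalling whose loss in mice enhances growth. It ranged from 4.15 to 44.2 CPM with a median of 9.09 CPM in model livers, and from 23.5 to 56.1 CPM with a median of 44.1 CPM in control livers. In 13 of 18 model mice it was below every control, and model mice 16, 11, 12, 3 and 18 lay within the range of the controls, at 44.2, 30.6, 27.4, 27.0 and 25.1 CPM. The log2 fold change was -1.49 (SE 0.38, edgeR adjusted p = 0.00154). With the clock index as a covariate it was -1.01 (SE 0.67, adjusted p = 0.236), and against control 6 alone, the lowest control at 23.5 CPM, it was -0.65 (SE 0.92, adjusted p = 0.658).

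Cish (chr9:107173225-107179983, plus strand) encodes another STAT5-induced inhibitor of cytokine receptors. It ranged from 3.32 to 37.9 CPM with a median of 7.88 CPM in model livers, and from 4.47 to 12.4 CPM with a median of 6.99 CPM in control livers. The model range enclosed that of the controls, with 8 of 18 model mice above every control and 3 below. Its log2 fold change of 0.67 had an SE of 0.45 and did not pass (edgeR adjusted p = 0.205). Of the 5 model mice whose Socs2 lay within the control range, model mice 16, 18, 12 and 3 also had more Cish than every control, at 37.9, 28.4, 20.7 and 14.8 CPM, while model mouse 11 had 3.82 CPM.

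The feedback pair also shifted relative to each other. The Socs2 to Cish RPKM ratio had a median of 0.774 in model mice and 4.25 in control mice. It was below every control in 16 of 18 model mice, and the lowest control was control 6, at 1.47 (exact permutation test, two-sided, p = 0.000186; adjusted over the 45 pairs of members, 0.000697). Over the 18 model mice the pair's log2 CPM values had a Pearson r of 0.55 (permutation p = 0.0178, adjusted over 45 pairs 0.181) and a Spearman rho of 0.48 (permutation p = 0.046, adjusted 0.300), so no relation passed; without the 2 mice farthest from the median of Socs2, r was 0.67.

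Bcl6 (chr16:23783802-23807602, minus strand) encodes a transcriptional repressor that binds many of the same sites as STAT5 and is male-biased in mouse liver. It ranged from 5.70 to 24.0 CPM with a median of 9.80 CPM in model livers, and from 4.66 to 14.5 CPM with a median of 10.2 CPM in control livers. Model mice 7, 11, 8 and 4 lay above every control, at 24.0, 20.9, 20.8 and 20.1 CPM, and the other 14 lay within the control range. This gave a log2 fold change of 0.22 (SE 0.28, edgeR adjusted p = 0.525). An unnamed gene on the opposite strand held 8.90% as many counts as Bcl6, and the strand setting of the counting is not given in the sources used here.

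Spread over the mice was compared across genes. The SD of log2 CPM over the 18 model mice was 0.97 for Socs2, 1.04 for Cish and 0.62 for Bcl6, beside a median of 0.18 over 9619 genes averaging 5 CPM or more. These stand at percentiles 99.3, 99.5 and 97.4 of those genes among the model mice, and at 92.4, 94.8 and 95.6 among the controls. Igfbp3, Igfals and Igfbp2 stood at percentiles 91.1, 90.1 and 85.9 among the model mice, Igf1 and Ghr at 76.4 and 66.1, and Igfbp4 and Stat5b at 41.8 and 31.4. Among genes most like Socs2 in rank order over the model mice were Pomgnt1 (Spearman rho 0.81), Tgm1 (0.81) and B4galt1 (0.80).

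The secreted products fell, apart from Igfbp3. Igf1 (chr10:87694127-87772904, plus strand) encodes the growth factor that liver supplies to the blood. It ranged from 268 to 509 CPM with a median of 407 CPM in model livers, and from 500 to 787 CPM with a median of 693 CPM in control livers. In 17 of 18 model mice it was below every control, and the remaining animal, model mouse 16 at 509 CPM, lay just above control 5 at 500 CPM. The log2 fold change was -0.76 (SE 0.11, edgeR adjusted p = 1.06e-06), -0.92 (adjusted p = 0.00596) against control 6 alone and -0.44 (adjusted p = 0.000423) with library totals. The genes most like Igf1 over the model mice were Asgr1, a hepatocyte receptor for glycoproteins (Spearman rho 0.88), Ak3 (0.85) and Txn2 (0.83).

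Igfals (chr17:25084971-25100984, plus strand), whose windows are printed above, encodes the acid-labile subunit that stabilises IGF1 in the blood. It ranged from 41.8 to 96.4 CPM with a median of 69.7 CPM in model livers, and from 113 to 177 CPM with a median of 132 CPM in control livers. All 18 model mice lay below all 6 controls, and it was the only member whose groups did not overlap; 6.02% of all genes tested were lower without overlap and 9.67% higher. Its fold change on the log2 scale was -1.04 (SE 0.15, edgeR adjusted p = 1.26e-06), and -1.27 (SE 0.31, adjusted p = 0.00655) against control 6 alone.

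In bulk liver RNA, fewer hepatocytes and less RNA per hepatocyte cannot be told apart. The 7 hepatocyte markers tested summed to 59527 to 117519 CPM in model livers and 118674 to 182338 CPM in control livers. Of the 7, none was at 0 and 6 fell, where 28.8% of all genes tested fell. Alb, the most abundant, averaged 61861 ± 12336 CPM in model livers (SD, n = 18) and 113726 ± 23984 CPM in control livers (SD, n = 6), a log2 fold change of -0.88 (SE 0.13, edgeR adjusted p = 1.38e-06). The part of this fall in the fall of Igf1, Igfals and the binding proteins was not tested.

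Igfbp3 (chr11:7156086-7163923, minus strand) encodes the main carrier of IGF1 in the blood; in rat liver its transcript comes from sinusoidal cells rather than hepatocytes. It ranged from 11.6 to 28.1 CPM with a median of 19.3 CPM in model livers, and from 7.00 to 16.5 CPM with a median of 10.8 CPM in control livers, with 12 of 18 model mice above every control. The log2 fold change was 0.81 (SE 0.19, edgeR adjusted p = 0.000585), 1.34 (SE 0.32, adjusted p = 0.00184) with the clock index as a covariate and 1.45 (SE 0.44, adjusted p = 0.0215) against control 6 alone, the lowest control. Markers of other liver cells rose in the same mice, where 31.2% of all genes tested rose. Of macrophage and Kupffer markers, 9 of 10 rose (summed 219 to 893 CPM in model livers, 43.7 to 115 CPM in control livers). Of endothelial markers, 6 of 7 rose (52.2 to 185 CPM in model livers, 34.1 to 67.8 CPM in control livers). Of stellate cell markers, 8 of 9 rose (159 to 409 CPM in model livers, 55.6 to 138 CPM in control livers). The part of these cells in the rise of Igfbp3 was not tested. Of the marker scores, only that of macrophages, the mean log2 CPM of those markers, was set against Igfbp3. Over the 18 model mice that relation had r = 0.22 (permutation p = 0.388, adjusted over 20 relations 0.597) and a Spearman rho of 0.14 (permutation p = 0.574, adjusted 0.717). Without the 2 mice farthest from the median score, r was 0.04. The relation holds no control mice, so it does not bear on the difference between the groups.

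Among the most abundant markers, Lyz2, of macrophages, averaged 147 ± 69.9 CPM in model livers (SD, n = 18) and 9.55 ± 3.62 CPM in control livers (SD, n = 6). Stab2, of endothelial cells, averaged 39.5 ± 8.76 CPM in model livers and 14.3 ± 3.45 CPM in control livers. Dcn, of stellate cells, averaged 140 ± 31.7 CPM in model livers and 58.2 ± 21.2 CPM in control livers. Of other lists, all 6 T and NK cell markers and all 5 B cell markers rose, where 31.2% of all genes tested rose. Of neutrophil markers 3 of 4 rose, and of cholangiocyte markers 1 of 5. Cd8a, Ighm, Csf3r and Spp1 had log2 fold changes of 2.77, 2.53, 2.68 and 1.96. Spp1 did not pass with the clock index as a covariate or against control 6 alone, nor did Cd8a against control 6 alone.

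The remaining binding proteins were the most abundant members. Igfbp2 (chr1:72863662-72891633, plus strand) encodes a binding protein of small circulating complexes. It ranged from 376 to 951 CPM with a median of 512 CPM in model livers, and from 759 to 1281 CPM with a median of 953 CPM in control livers. In 17 of 18 model mice it was below every control; model mouse 10, at 951 CPM, stood well above the next, model mouse 7 at 694 CPM. The log2 fold change was -0.88 (SE 0.14, edgeR adjusted p = 4.77e-06), but -0.68 (SE 0.30, adjusted p = 0.101) against control 6 alone.

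Igfbp4 (chr11:98932070-98945218, plus strand) encodes a binding protein that mostly inhibits IGF action. It ranged from 1151 to 1681 CPM with a median of 1386 CPM in model livers, and from 1298 to 2055 CPM with a median of 1648 CPM in control livers, with 6 of 18 model mice below every control. Its log2 fold change was -0.25 (SE 0.09, edgeR adjusted p = 0.0198). It was 0.08 with library totals, the call was lost with upper-quartile factors (adjusted p = 0.136), without control 5 (adjusted p = 0.0615) and without control 6 (adjusted p = 0.0881), and the value was -0.56 (adjusted p = 0.00157) with the clock index as a covariate.

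**Figure D2:**
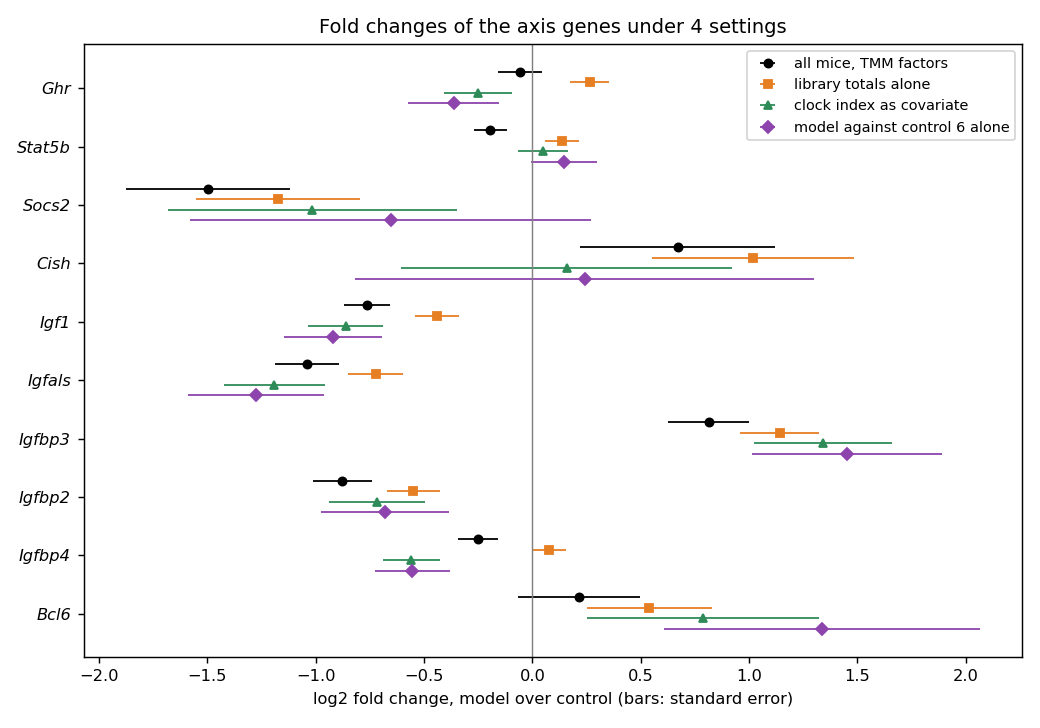
Log2 fold changes of the 10 axis genes, model over control, with standard errors, under TMM factors with all mice, library totals alone, the clock index as a covariate, and control 6 as the sole control. Igf1, Igfals and Igfbp3 kept their direction and their call under all 4 settings, while Ghr, Stat5b and Igfbp4 changed sign under at least 1 of them (Ghr with library totals, Stat5b with library totals, the clock index and control 6, Igfbp4 with library totals).

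Per length, the order of the members changed at several places. In model livers the mean levels ran Igfbp4 (315 RPKM), Igfbp2 (290), Igf1 (40.5), Ghr (40.4), Igfals (21.4), Stat5b (8.19), Igfbp3 (6.08), Cish (1.97), Bcl6 (1.75) and Socs2 (1.56 RPKM). In control livers they ran Igfbp2 (532 RPKM), Igfbp4 (375), Igf1 (68.8), Igfals (44.0), Ghr (42.0), Stat5b (9.36), Socs2 (4.39), Igfbp3 (3.45), Bcl6 (1.51) and Cish (1.24 RPKM). Neighbours whose ranges over mice did not overlap were Igfbp2 above Igf1, Ghr above Igfals and Igfals above Stat5b in model livers, and Igfbp4 above Igf1, Ghr above Stat5b, Stat5b above Socs2 and Igfbp3 above Bcl6 in control livers. Igfbp2 exceeded Igfbp4 in 5 of 18 model mice and in 6 of 6 control mice, and Igf1 exceeded Ghr in 5 of 18 model mice and in 6 of 6 control mice. All other neighbours overlapped.

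The proportions within each liver do not depend on how libraries are scaled, and were compared for all 45 pairs of members with an exact permutation test (two-sided). After Benjamini-Hochberg adjustment over the 45, 28 pairs passed, and 25 to 30 passed when each library was left out in turn. The ratios were chosen after the data were seen. No share for pairs of other genes was taken, so the count is not read as particular to these members. Igf1 and Igfals both fell against Igfbp3, which follows from their calls in opposite directions and is not separate support. The Igf1 to Igfbp3 RPKM ratio had a median of 6.63 in model mice (range 3.89 to 12.8) and 19.9 in control mice (range 12.9 to 34.5), with all 18 model mice below all 6 controls. The Igfals to Igfbp3 ratio had a median of 3.44 in model mice (range 2.18 to 5.62) and 13.2 in control mice (range 6.77 to 23.3), again without overlap. For both, the exact p was 7.43e-06, the smallest the test can give, and 8.36e-05 after adjustment.

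The receptor gene Ghr stood higher against Igfals and Igf1, and also against Socs2 and Igfbp2 (exact adjusted p = 0.00254 and 0.000608). Ghr was not called while these genes were called lower, so the higher ratios are not separate support. In the Ghr to Socs2 ratio control 6 was the highest control, at 21.2, and 12 of 18 model mice lay above every control. Against Igfbp3, Ghr stood lower, with a median ratio of 7.24 in model mice and 12.1 in control mice (exact adjusted p = 0.00182). Its ratios to Cish, Igfbp4 and Bcl6 did not pass (exact adjusted p = 0.429, 0.148 and 0.509). The Ghr to Igfals ratio had a median of 1.81 in model mice (range 1.29 to 2.72) and 1.02 in control mice (range 0.595 to 1.24), without overlap (exact adjusted p = 8.36e-05). The Ghr to Igf1 ratio had a median of 1.04 in model mice and 0.608 in control mice, with 17 of 18 model mice above every control (exact adjusted p = 0.000143). Igfals also fell against Igfbp4, to a median of 0.0678 in model mice against 0.120 in control mice, with 18 of 18 below every control (exact adjusted p = 8.36e-05). Some pairs did not pass. The Igf1 to Igfals ratio had a median of 1.79 in model mice and 1.65 in control mice (exact adjusted p = 0.113). The Igf1 to Igfbp2 ratio had a median of 0.142 in model mice and 0.144 in control mice (exact adjusted p = 0.505). The Ghr to Stat5b ratio had a median of 5.13 in model mice and 4.39 in control mice (exact adjusted p = 0.401).

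**Figure D3:**
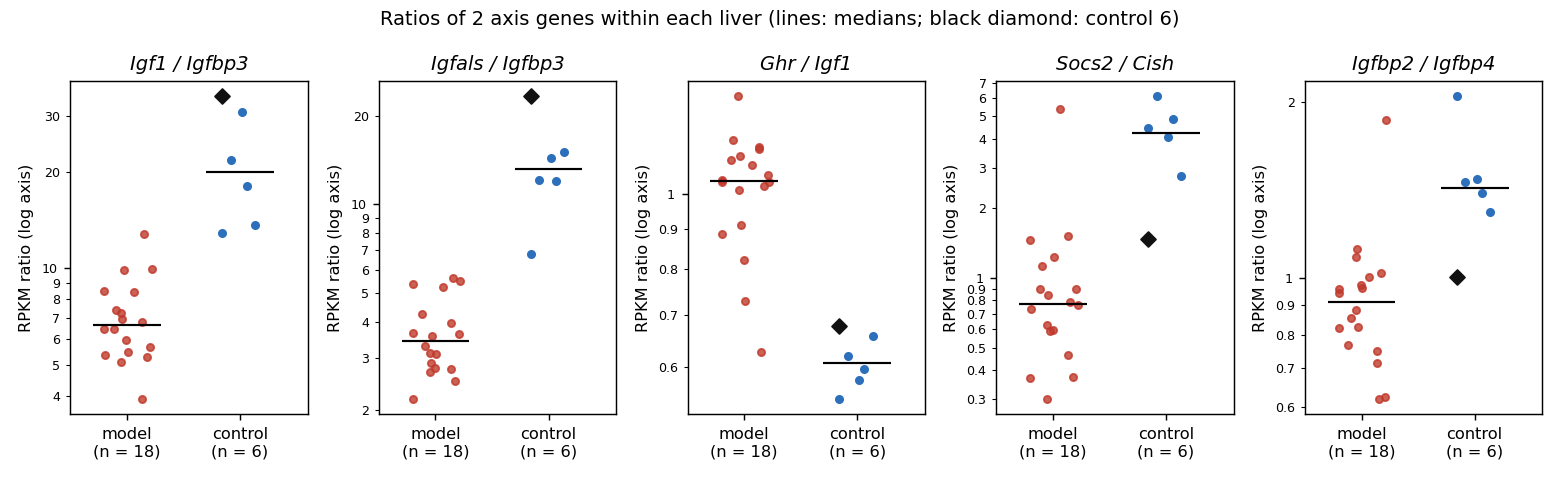
RPKM ratios of 5 pairs of axis genes within each liver on log axes, model mice (red, n = 18) left of control mice (blue, n = 6), with lines at the medians and a black diamond for control 6. The Igf1 to Igfbp3 and Igfals to Igfbp3 ratios do not overlap between the groups, and control 6 holds the highest control value in both.

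Over the 18 model mice, the members' log2 CPM values were compared in 45 pairs. On the first principal component of the 1000 most variable genes (48.0% of their variance), the widest gap that left at least 6 mice on each side was 14.3% of the range, so the mice were taken as a single cluster by that measure. Igfals and Igfbp4 had a Pearson r of 0.75 (permutation p = 0.00056, adjusted 0.0126) and a Spearman rho of 0.80 (permutation p = 0.00016, adjusted 0.0072), with r = 0.75 without the 2 mice farthest from the median of Igfals. Igf1 and Igfbp4 had r = 0.73 (permutation p = 0.0005, adjusted 0.0126) and rho = 0.76 (permutation p = 0.00043, adjusted 0.00967), with r = 0.69 without 2 mice. Igf1 and Igfals had r = 0.60 (permutation p = 0.00804, adjusted 0.121) and rho = 0.69 (permutation p = 0.00212, adjusted 0.0318), with r = 0.60 without 2 mice. All pairs share library and scaling: with library totals alone neither of the first pairs passed by Pearson's r (0.46 for Igfals with Igfbp4 and 0.61 for Igf1 with Igfbp4, adjusted p 0.308 and 0.162).

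**Figure D4:**
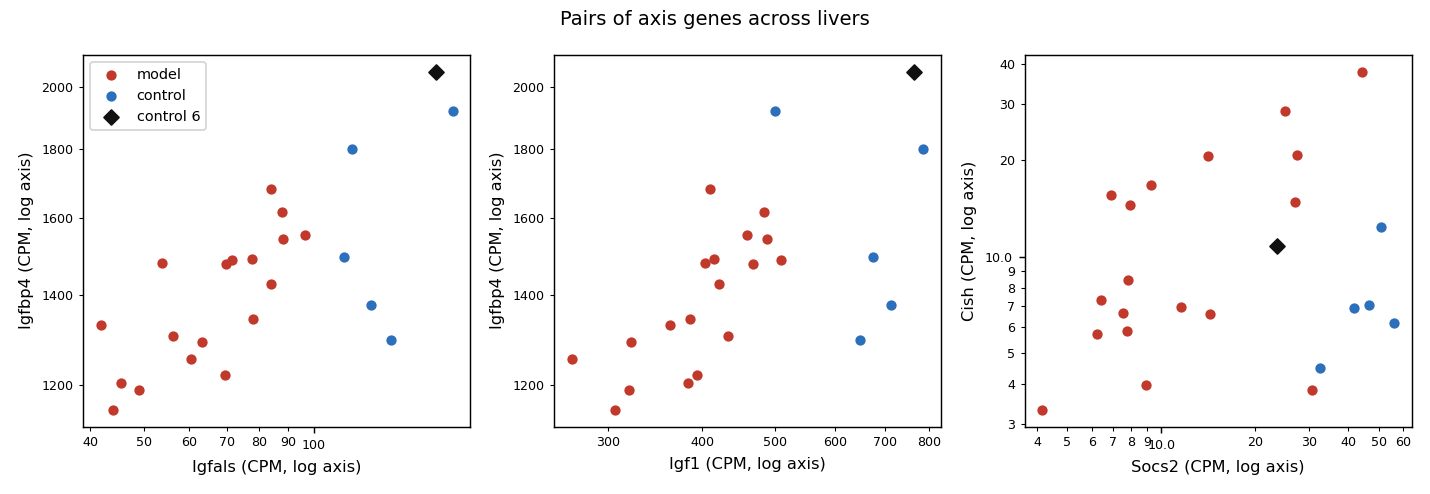
CPM of Igfals and Igfbp4, of Igf1 and Igfbp4, and of Socs2 and Cish in each liver on log axes, model mice in red (n = 18), controls 1 to 5 in blue and control 6 as a black diamond. Among the model mice the Igfals and Igf1 levels run with Igfbp4 (r = 0.75 and 0.73), while control mice hold more Igfals than every model mouse.

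Among other genes of the pathway, 31 were listed and 27 tested: 8 rose, 7 fell and 12 were not called. Their median log2 fold change was 0.05, beside 0.01 for all genes tested. Over all genes tested 31.2% rose and 28.8% fell, so both counts are near the background. With library totals, 14 rose and 4 fell, where 53.9% of all genes tested rose and 8.95% fell. Those that rose included Stat5a, Socs1, Ptpn6, Grb10, Igf1r, Igf2r and Igfbp7; those that fell were Igfbp1, Cux2, Igfbp6, Irs2, Ptpn11, Insr and Sh2b1. Igfbp7, a secreted protein related to the IGF-binding proteins, averaged 67.4 ± 17.4 CPM in model livers (SD, n = 18) and 22.1 ± 5.92 CPM in control livers (SD, n = 6), with a log2 fold change of 1.61 (SE 0.20, edgeR adjusted p = 1.96e-07) and all 18 model mice above every control.

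Igfbp1, whose product is an acutely regulated binding protein that rises in fasting, had the largest fall among the binding protein genes tested. It ranged from 8.96 to 52.2 CPM with a median of 25.4 CPM in model livers, and from 62.3 to 210 CPM with a median of 168 CPM in control livers, with no overlap. On the log2 scale the fold change was -2.67 (SE 0.25, edgeR adjusted p = 4.52e-09). Igf1r, the receptor of IGF1, scarce in hepatocytes, averaged 1.86 ± 0.51 CPM in model livers and 1.08 ± 0.23 CPM in control livers (log2 fold change 0.78, SE 0.19, edgeR adjusted p = 0.000855), and did not pass against control 6 alone (adjusted p = 0.377) or with the clock index as a covariate (adjusted p = 0.0628). Socs3, an inhibitor induced by cytokines, averaged 8.91 ± 1.62 CPM in model livers and 10.3 ± 2.71 CPM in control livers (log2 fold change -0.21, edgeR adjusted p = 0.172; 0.13 with library totals). Igf2 had no count in any library, and Pappa, Pappa2 and Stc1 were too low to be tested.

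Genes that follow the sex pattern of growth hormone were measured beside the axis. Of 24 male-biased liver genes tested, 22 fell, 1 rose and 1 was not called, with a median log2 fold change of -2.53. Over all genes tested, 28.8% fell and 31.2% rose. Without overlap, 13 of the list were lower, beside 6.02% of all genes tested. Fewer of the list fell against control 6 alone, which is 1 control, as did fewer of all genes tested. Hsd3b5, whose product acts on steroids, averaged 1.23 ± 2.26 CPM in model livers (SD, n = 18) and 80.6 ± 20.6 CPM in control livers (SD, n = 6), a log2 fold change of -6.10 (SE 0.58, edgeR adjusted p = 4.94e-09), which was -6.81 without model mouse 8. Cspg5, a proteoglycan gene, averaged 0.160 ± 0.171 CPM in model livers and 8.25 ± 1.95 CPM in control livers (log2 fold change -5.72, SE 0.31, edgeR adjusted p = 2.28e-13). The gene that rose, Cyp2u1, had a log2 fold change of 0.56 (SE 0.21, edgeR adjusted p = 0.0215) and was not called without control 4 (adjusted p = 0.0607) or against control 6 alone (adjusted p = 0.374). The Mup, Cyp and Serpina1 families hold near-identical copies, so the level of any single member is uncertain.

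Female-biased liver genes moved in both directions, where 31.2% of all genes tested rose and 28.8% fell. Of 22 tested, 11 rose, 8 fell and 3 were not called, with a median log2 fold change of 0.83. Fewer of the list were called in either direction against control 6 alone, as were fewer of all genes tested. Cyp2b9 ranged from 3.26 to 166 CPM in model livers and was at most 0.372 CPM in control livers, the highest control being control 6 (log2 fold change 9.94, SE 1.15, edgeR adjusted p = 9.98e-08). With 14 control counts in all, that value rests on control 6: it was 11.76 without control 6 and 7.63 (adjusted p = 0.0357) against control 6 alone. Cyp2b13 had 6132 counts over the model libraries and 2 counts over the control libraries, a ratio of 970 per library total with an exact 95% interval from 268 to 8010 that covers counting error only, and was not called against control 6 alone (adjusted p = 0.101). In the other direction, Cyp2c40 averaged 0.371 ± 0.195 CPM in model livers and 4.89 ± 2.04 CPM in control livers (log2 fold change -3.72, SE 0.27, edgeR adjusted p = 1.74e-11). Cux2, a repressor of male-biased genes that is itself female-biased in liver, averaged 0.752 ± 0.913 CPM in model livers and 6.02 ± 7.21 CPM in control livers (log2 fold change -3.04, SE 0.65, edgeR adjusted p = 0.000285), and ranged from 0.193 to 19.5 CPM among the controls, so that only 6 of 18 model mice lay below every control. Without control 2 the value was -2.16, and it did not pass against control 6 alone (adjusted p = 0.0668).

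**Figure D5:**
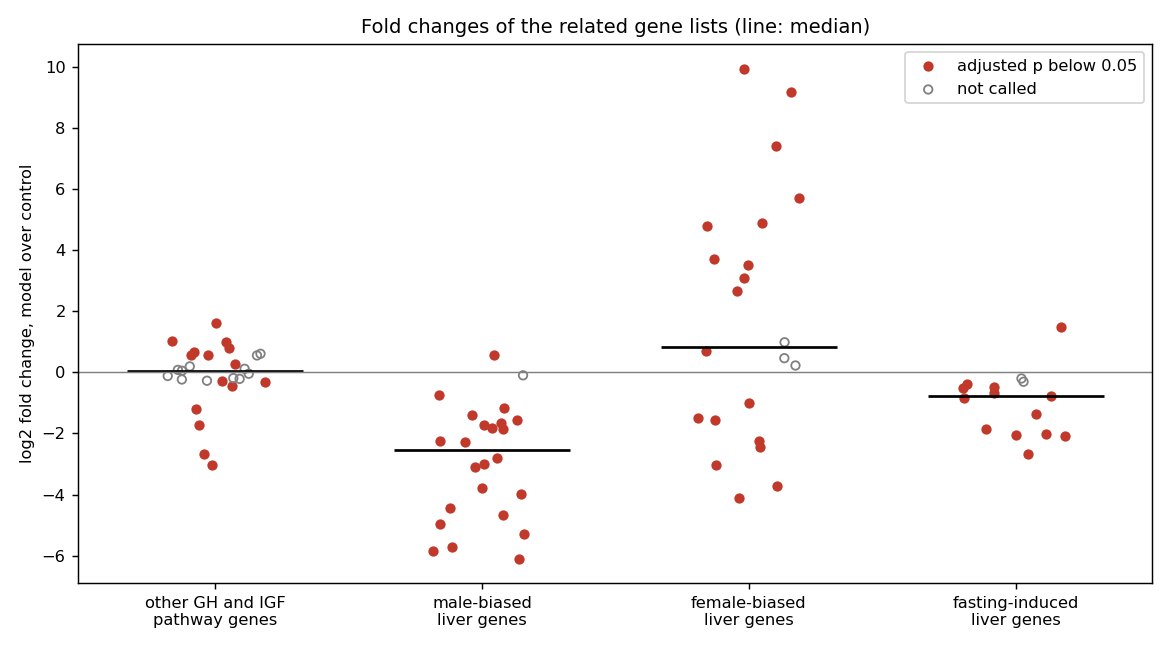
Log2 fold changes, model over control, of the tested genes of 4 related lists, with filled red points for adjusted p below 0.05, open grey points for genes not called and a line at each median. The male-biased genes lie mostly below 0 with a median of -2.53, and the female-biased genes lie on both sides of 0.

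Members were set against the male-biased score, the mean log2 CPM of that list, over the 18 model mice. The score and the members share library and TMM scaling, and the part of that scaling in the relations was not tested. Igf1 ran with the score at r = 0.80 (permutation p = 9e-05, adjusted over 20 relations 0.0018) and rho = 0.67 (permutation p = 0.00312, adjusted 0.0394), with r = 0.62 without the 2 mice farthest from the median score. Igfbp4 ran with it at r = 0.69 (permutation p = 0.00138, adjusted 0.0138) and rho = 0.66 (permutation p = 0.00394, adjusted 0.0394), with r = 0.60 without 2 mice. The other 8 members did not pass, Socs2 among them at r = 0.17 (permutation p = 0.506, adjusted 0.636) and rho = 0.07 (permutation p = 0.800, adjusted 0.842), with r = 0.29 without 2 mice. None of the 10 relations with the macrophage marker score passed, the strongest being that of Igfals at r = -0.59 (permutation p = 0.0108, adjusted 0.0717) and rho = -0.57 (permutation p = 0.0152, adjusted 0.102), with r = -0.61 without 2 mice.

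Fasting lowers hepatic growth hormone signalling and raises a known set of liver genes, which was therefore counted too. The background was 28.8% of all genes tested lower and 31.2% higher. Of 15 fasting-induced genes tested, 12 fell, 1 rose and 2 were not called, with a median log2 fold change of -0.77. Fewer of the list fell against control 6 alone, which is 1 control, as did fewer of all genes tested. G6pc, of glucose release, averaged 157 ± 67.3 CPM in model livers (SD, n = 18) and 665 ± 97.6 CPM in control livers (SD, n = 6), a log2 fold change of -2.09 (SE 0.23, edgeR adjusted p = 2.84e-08). Gdf15, the gene that rose, is a stress-induced hormone gene and averaged 11.9 ± 4.73 CPM in model livers and 4.29 ± 1.44 CPM in control livers (log2 fold change 1.47, SE 0.27, edgeR adjusted p = 5.22e-05); it did not pass against control 6 alone (adjusted p = 0.210) or with the clock index as a covariate (adjusted p = 0.205). Fgf21, a fasting hormone gene that in mice lowers STAT5 signalling when overexpressed, averaged 12.9 ± 5.14 CPM in model livers and 16.0 ± 9.34 CPM in control livers (log2 fold change -0.31, SE 0.30, edgeR adjusted p = 0.391; 0.01 with library totals). Feeding state and time of collection are not given in the labels.

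Clock genes differed between the groups: of 12 tested, 5 rose, 4 fell and 3 were not called. Over all genes tested, 31.2% rose and 28.8% fell. Dbp and Nr1d1 rose, with log2 fold changes of 2.68 (SE 0.46, edgeR adjusted p = 2.27e-05) and 2.13 (SE 0.25, edgeR adjusted p = 7.12e-08), and Arntl and Cry1 fell, with log2 fold changes of -2.53 (SE 0.21, edgeR adjusted p = 2.74e-10) and -2.27 (SE 0.13, edgeR adjusted p = 6.34e-13). Control 6, at 40.5 CPM of Dbp and 4.02 CPM of Arntl, lay nearer the model mice (45.7 to 80.4 CPM and 2.38 to 4.79 CPM) than the other controls did, and without control 6 Dbp was at 4.02. Against control 6 alone, Dbp and Arntl did not pass (0.67 and -0.18, adjusted p 0.0535 and 0.703), while Nr1d1 (1.85, adjusted p = 2.22e-05) and Cry1 (-1.70, adjusted p = 8.78e-07) did.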

How the data were processed

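The values are raw read counts per Ensembl gene for 24 mouse liver libraries, deposited by the authors as a single table, whose Length column holds the summed exon length in bases and has another unit than the counts. Per the labels' protocols, RNA extracted with Trizol was captured on oligo(dT) beads and sequenced as DNA nanoballs, and no step that marks the strand is named. The genome build was GRCm39, per the submitters' processing notes. For the aligner, the counting program and the strand setting nothing is given in the sources used here. Symbols came from a reference table of gene names (51498 of 78298 IDs matched, holding 99.6% of counts), and gene coordinates were read from the deposited exon positions. Promoter sequences came from RefSeq, GRCm38.p6, and were used only as sequence.

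Groups came from the labels. The test was edgeR 4.0.16 in R 4.3.3 (quasi-likelihood, robust, TMM factors, default filter by group, all 24 libraries), with adjusted p below 0.05 as the threshold; the SE is the absolute log2 fold change over the square root of F. TMM factors were 1.06 ± 0.061 in model mice and 0.843 ± 0.0285 in control mice. Log2 CPM used a prior count of 2. Ratios were tested by exact permutation over the mice and relations with 100000 permutations, in Python 3.11.15 (scipy 1.17.1, numpy 2.4.6, pandas 2.3.3), and figures were drawn with matplotlib 3.10.9. The edgeR script was tested on simulated data. The limit that 3 counts stand for was 0.0514 to 0.0949 CPM, and intervals cover counting error only. The chi-square per degree of freedom was 19.1 or more in each of 168 pairs of libraries of a group, so no library was taken as a repeat. No column of samples was left out.

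The members, the gene lists and the tests were chosen with earlier results of these data known. Genes named are the 10 members, the 2 called genes of each list with the largest change in each direction and a mean of at least 1 CPM, a fixed set of pathway genes (Jak2, Stat5a, Prlr, Igfbp1, Igf1r, Socs3, Cux2, Fgf21), the 3 genes most like Ghr, Igf1 and Socs2, the sex chromosome genes and the most abundant marker of each cell type; other pathway genes are named to give their direction. A pathway gene named by the rule is not reported here. Of list genes tested, some belong to more than 1 list (Cux2, Igfbp1). Other settings tried were library totals, upper-quartile and RLE factors, DESeq2 1.42.0, limma-voom (limma 3.58.1), no filter, a filter of 1 CPM in 6 libraries, the clock index as a covariate, omission of each library in turn and a block on the replicate number. Chosen after seeing the data were control 6 as the sole control, model mice 1 to 6 against the controls, the ratios within a liver, the relations with list scores and the partial correlations given the macrophage score.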

Additional observations from a re-analysis of the deposited data

Results flagged for a closer look

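For 40 named genes the 6 control values were searched for a single distant mouse, which chance alone gives in about 5% of groups. In 2 of the 40 genes, about the share that chance gives, the highest control was far from the others. In both it was control 6. That mouse also stood apart from the other controls in the clock index, which includes Dbp. Cyp2b9, a female-biased gene, was at 0.372 CPM in control 6, and the next highest control was at 0.0710 CPM. Dbp, a clock output gene, was at 40.5 CPM in control 6, and the next highest control was at 7.56 CPM. None of the 10 axis genes had a control that stood apart in this way.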

How the results depend on the processing

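Of the 40 named fold changes, all kept their direction and call with RLE factors and with DESeq2. Igf1, Igfals and Igfbp3 kept theirs under every alternative run. With library totals, where the median over all genes was 0.34 on the log2 scale and 85.8% of calls were higher (52.0% with TMM, 62.8% with upper-quartile factors), the sign changed for Ghr (0.26), Stat5b (0.14), Igfbp4 (0.0765), Prlr (0.0328), Socs3 (0.13) and Fgf21 (0.0138); members called higher were 2 (53.9% of all genes tested were), and 14 pathway genes were called higher and 4 lower. Ghr was 0.0352 with upper-quartile factors and lay between -0.123 and 0.0108 with each library left out, the highest being without control 6. With the clock index as a covariate 6904 genes were called, against 10480; the sign changed for Stat5b (0.0488) and Fgf21 (0.18), and no male-biased or fasting-induced gene was called higher (0 in each). Against control 6 alone 4487 genes were called: 3 members lower, 4 pathway genes higher and 3 lower, 0 male-biased higher and 10 lower, 6 female-biased higher and 5 lower, 0 fasting-induced higher, and Stat5b (0.15), Socs3 (0.0620) and Fgf21 (0.83) changed sign. Of all genes tested in that comparison, which holds 1 control, 9.75% were lower and 13.3% higher, so the pathway counts there are near the background. The 1 male-biased gene called higher was lost (0) also with no filter, with limma-voom and with the first 6 model mice. Member correlations that passed numbered 2, but 1 with library totals, which was Stat5b with Igf1 (r = -0.84), and 4 given the macrophage score. The causes were not tested.

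Leaving out each library gave 4 to 6 members lower and 1 higher, 8 to 9 pathway genes higher and 7 to 8 lower, 0 to 1 male-biased genes higher and 21 to 22 lower, 11 to 12 female-biased higher and 8 lower, 1 fasting-induced higher and 11 to 12 lower, and 2 to 3 correlations. The labels do not say whether the replicate numbers 1 to 6 pair the groups. Deviations of mice with the same number correlated at -0.29 to 0.07, which does not settle it. With the number as a block over 12 libraries 7351 genes were called, against 8114 for the same libraries without it; Bcl6 was -0.0679 with the block and -0.0212 without it, and Socs2 was -1.88 with the block.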
